A study of Mus musculus with 6 samples.

Results

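The genes described here are 10 genes of the NRF2 antioxidant response, measured in whole mouse retina in a model of abnormal vessel growth. They are Nfe2l2, Keap1, Hmox1, Nqo1, Gclc, Gclm, Txnrd1, Srxn1, Slc7a11 and Prdx1. They were chosen by gene symbol, and all 10 were found among the 22173 genes of the deposited files. RNA was sequenced in 6 libraries of wild-type C57BL/6J retina taken at postnatal day 17. The 3 Control libraries came from pups kept in room air. The 3 libraries of oxygen-induced retinopathy (OIR) came from pups that breathed 75% oxygen between postnatal days 7 and 12 and then room air until collection. No transgene or deletion is named for either group, and the labels do not say how many animals or retinas went into a library. The p-values therefore reflect only how these 6 libraries vary, and that variation may be technical.

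NRF2, encoded by Nfe2l2, is a transcription factor that turns on genes for the defence against oxidants. In unstressed cells the adaptor protein KEAP1 binds NRF2 and presents it to a ubiquitin ligase, so that it is degraded. Oxidants and electrophiles modify cysteines of KEAP1, NRF2 accumulates, pairs with a small MAF protein and binds antioxidant response elements near its target genes. Much of this control acts on the protein, so the level of Nfe2l2 RNA is not a measure of NRF2 activity. In the retina the pathway is known for protecting neurons, glia and vessels from oxidative injury.

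The windows before the start sites are shown first, because the antioxidant response element is the sequence through which NRF2 acts on these genes. Promoter sequences for 8 of the 10 genes were taken from RefSeq (build GRCm38.p6). Hmox1 and Gclc had no entry. The 250 bases before each start site were searched on both strands for 2 spellings of the element's core, TGACNNNGC and TGAGNNNGC. At least 1 of them was found before a start site of 6 genes, Nfe2l2, Srxn1, Slc7a11, Gclm, Prdx1 and Txnrd1, and none was found in these windows of Nqo1 and Keap1. For Txnrd1 there were 3 start sites, and 1 of the 3 windows had a match. Counted by window, 6 of the 10 windows of these 8 genes had a match. Across all 32851 windows of the same length, 23.0% held at least 1 of the 2 spellings, 10.2% the first and 14.4% the second. A match is a description of the letters and does not show that NRF2 binds there.

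The windows of 4 genes are printed 5′ to 3′ on the strand of the gene, with matches in capitals: those of Nfe2l2 and Txnrd1, the genes with the lowest adjusted p of the 10, and, for comparison, those of Srxn1 and Prdx1. They lie at chr2:75704664-75704913 (minus strand), chr10:82858956-82859205 (plus strand), chr2:152105274-152105523 (plus strand) and chr4:116685349-116685598 (plus strand).
Nfe2l2: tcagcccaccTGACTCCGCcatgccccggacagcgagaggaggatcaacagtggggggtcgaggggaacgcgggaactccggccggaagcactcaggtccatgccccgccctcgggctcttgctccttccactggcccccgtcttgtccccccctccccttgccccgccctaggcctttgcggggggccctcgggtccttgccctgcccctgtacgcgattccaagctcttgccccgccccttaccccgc
Txnrd1: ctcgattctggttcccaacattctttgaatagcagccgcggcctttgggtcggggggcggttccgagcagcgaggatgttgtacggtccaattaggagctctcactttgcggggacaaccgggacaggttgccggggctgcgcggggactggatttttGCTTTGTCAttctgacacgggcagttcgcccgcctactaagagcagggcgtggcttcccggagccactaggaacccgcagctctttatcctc
Srxn1: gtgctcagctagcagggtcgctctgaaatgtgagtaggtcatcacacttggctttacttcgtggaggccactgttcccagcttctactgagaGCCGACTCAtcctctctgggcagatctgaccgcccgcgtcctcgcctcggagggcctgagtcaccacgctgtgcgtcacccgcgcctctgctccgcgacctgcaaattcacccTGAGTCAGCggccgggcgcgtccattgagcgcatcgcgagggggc
Prdx1: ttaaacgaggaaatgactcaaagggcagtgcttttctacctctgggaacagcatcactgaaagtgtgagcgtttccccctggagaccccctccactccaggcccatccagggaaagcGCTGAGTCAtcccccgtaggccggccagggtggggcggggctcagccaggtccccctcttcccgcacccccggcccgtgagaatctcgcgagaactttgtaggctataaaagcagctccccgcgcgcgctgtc
The match begins 240 bases before the start site in Nfe2l2, 92 bases before it in Txnrd1, and 133 bases before it in Prdx1. Srxn1 has 2 matches, at 158 and 45 bases before the start site. The matches in Prdx1 and the nearer one in Srxn1 overlap the related AP-1 motif TGANTCA. The capitals read the motif on the gene's own strand in Nfe2l2 and at the nearer site of Srxn1, and its reverse complement in the other matches.

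Values are RPKM, reads per kilobase of gene scaled to the total reads of the library. Levels can be set side by side between genes, but between libraries they also depend on the make-up of the RNA. Control 3 differed in this: its RPKM values summed to 376714 over all genes, against 305386 to 313642 in the other libraries. Reads behind the values were recovered from their steps, and the libraries held 35615501 to 38025623 reads. Markers of rods summed to between 10468 and 12816 RPKM in Control and between 12512 and 12959 RPKM in OIR, so the labelled tissue was present in each library. Control 3 and OIR 2 stood apart by RNA of the eye lens: 20 lens genes took 6.32% of Control 3 and 0.555% of OIR 2 reads, against 0.0153% to 0.0584% in the others. The 4 Y-linked genes Ddx3y, Eif2s3y, Kdm5d and Uty summed to 12.7 to 24.2 RPKM in Control 3, OIR 1 and OIR 2 and to 0.112 to 0.145 RPKM in the others, and the part of sex in the results was not tested. Results that rest on a lens-rich library are given with and without it.

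In Control retina the 10 genes spanned levels from 0.541 RPKM for Slc7a11 to 63.1 RPKM for Prdx1. Between these came Srxn1 at 21.7, Keap1 at 15.6, Gclc at 12.7, Txnrd1 at 12.3, Gclm at 10.7, Nfe2l2 at 10.4 and Nqo1 at 1.68 RPKM, as means of the 3 libraries. The Control ranges of Gclc and Txnrd1 overlapped, as did those of Gclm and Nfe2l2, while the lowest Txnrd1 value was just above the highest Gclm value, at 11.92 against 11.91 RPKM. Hmox1 has no useful mean, as described below. The plot of levels by library shows each value.

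**Figure D1:**
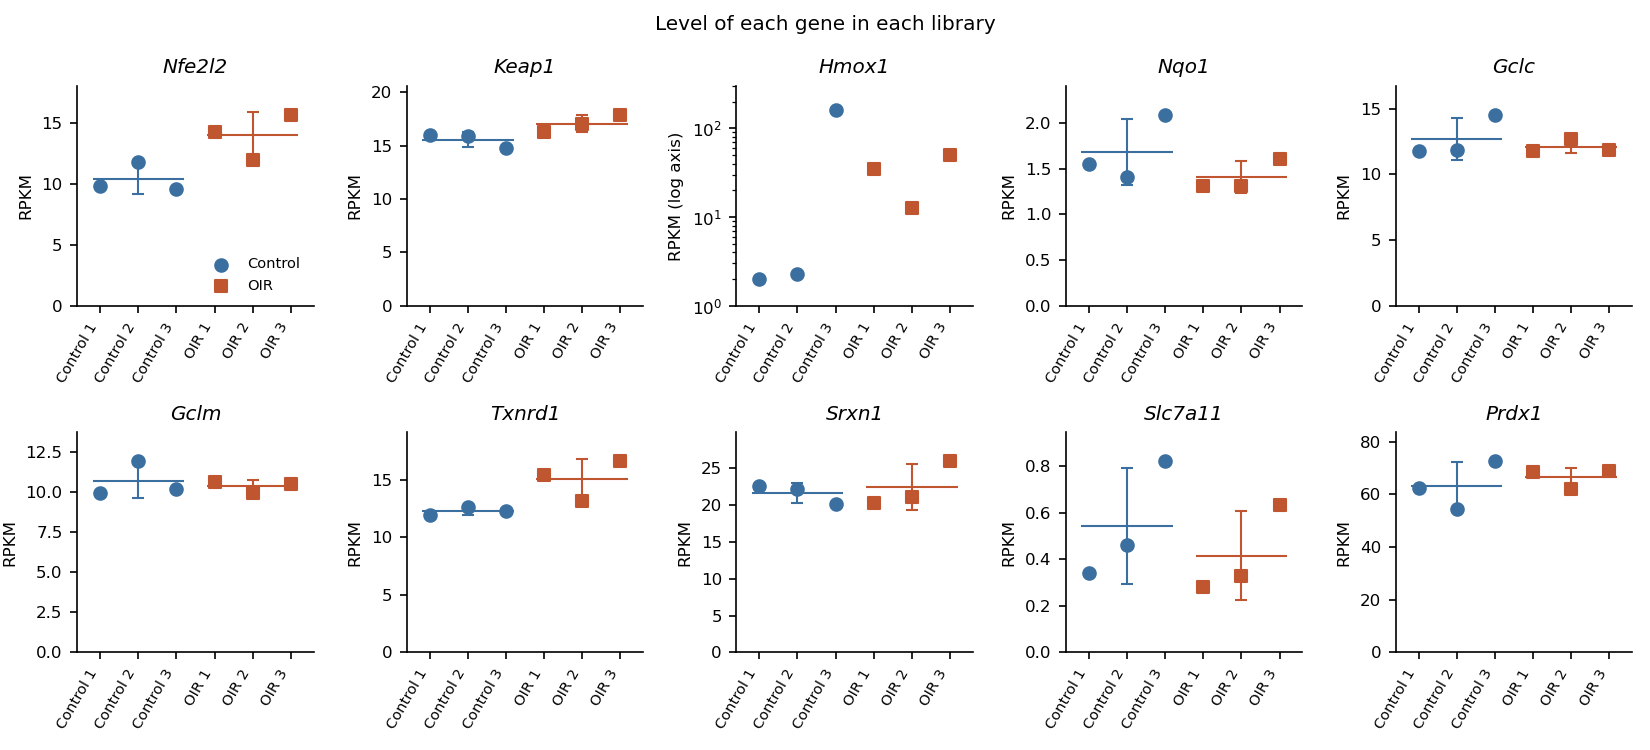
RPKM of each of the 10 genes (vertical axes) in the 3 Control libraries (blue circles) and the 3 OIR libraries (orange squares); lines are group means with bars of 1 SD, left out for Hmox1, which has a log axis. Nfe2l2, Keap1 and Txnrd1 are the genes whose groups do not overlap, and Hmox1 reaches 160.1 RPKM in Control 3 against 2.01 and 2.28 RPKM in the other Controls.

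Of the 9 genes tested, 1 was higher in OIR and none was lower, while 11.6% of all 12112 genes tested were called higher and 7.22% lower. Genes were tested with at least 1 RPKM in at least 3 libraries, and the 9 genes reached this in all 6. Slc7a11 did not. The call was an adjusted p below 0.05 in limma, fitted over all tested genes on log2(RPKM + 1), a scale that understates the change of low genes. At an unadjusted p below 0.05 there were 2 members higher and none lower, where all genes gave 20.0% higher and 14.0% lower. Limma-voom on the recovered reads also called no member lower, and 8.12% of all genes lower. It called 2 members higher, and 1451 of all genes. For 3 of the 9 genes the groups were fully apart, all with OIR above Control, where 23.6% of all tested genes had OIR above Control throughout and 15.0% had it below. The median log2 fold change was 0.08 over the 9 genes and 0.03 over all tested genes. These shares are near those of the whole table. Scaling by median ratios moved the share of higher genes among all calls from 61.7% to 49.4%, and left Nfe2l2 as the member called.

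Nfe2l2, the gene of the NRF2 protein itself, rose in OIR. It was at 9.82, 11.8 and 9.56 RPKM in Control 1 to 3 and at 14.3, 11.95 and 15.7 RPKM in OIR 1 to 3. The groups did not overlap, but OIR 2 was within 0.2 RPKM of Control 2, the highest Control. The mean rose from 10.4 ± 1.2 RPKM to 14.0 ± 1.88 RPKM (SD, n = 3 per group), which is a ratio of 1.35. The log2 fold change was 0.39 with a 95% interval from 0.16 to 0.63 and an adjusted p of 0.0284 (limma). The call ended without Control 1, Control 3, OIR 1 or OIR 3, with adjusted p at 0.105, 0.0853, 0.107 and 0.0970 for log2 fold changes between 0.31 and 0.37. It also ended with no filter, at 0.0739. The call held without Control 2 (0.0245), without OIR 2 (0.00232) and in limma-voom (0.0217). Without both lens-rich libraries the log2 fold change was 0.44, at an adjusted p of 0.00737. In a bulk sample, more RNA per cell and a larger share of cells rich in that RNA cannot be told apart. Markers of other cell types moved in these libraries: 11 of 11 tested microglia and macrophage markers were higher in OIR, with sums of 45.0 to 49.6 RPKM in Control and 122.5 to 168.1 in OIR. The endothelial list had 9 of its 10 tested markers higher, with sums of 47.3 to 50.02 against 86.2 to 92.1 RPKM, and none of the markers on either list was at 0 in all libraries. Their part in the Nfe2l2 result was not tested.

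Keap1, the gene of the adaptor that holds NRF2 down, was at 16.0, 15.9 and 14.8 RPKM in Control 1 to 3 and at 16.3, 17.1 and 17.9 RPKM in OIR 1 to 3. The groups did not overlap, and the gap between them was smaller than the range within either. The log2 fold change of 0.13, with an interval from -0.02 to 0.28, did not pass (adjusted p 0.224).

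Hmox1, the gene of haem oxygenase 1, had the widest spread of the 10 genes. This enzyme opens the haem ring, releases iron and carbon monoxide, and is induced by haem and oxidants as well as by NRF2. Hmox1 was at 2.01 RPKM in Control 1 and 2.28 in Control 2, and at 160.1 RPKM in Control 3. In OIR it was at 35.2, 12.6 and 49.6 RPKM in OIR 1 to 3. Each OIR library was thus above Control 1 and Control 2 and below Control 3. Between 118 and 8988 reads lay behind these values.

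Over all 6 libraries Hmox1 did not pass, with a log2 fold change of 1.32, an interval from -4.00 to 6.64 and an adjusted p of 0.689. The plain means ran the other way, at 54.8 ± 91.2 RPKM in Control and 32.4 ± 18.7 in OIR, since Control 3 sets the Control mean. Without Control 3 the means were 2.14 and 32.4 RPKM, a ratio of 15.1, and the log2 fold change of 3.21 did not pass either (adjusted p 0.0621). Without both lens-rich libraries, with 2 libraries in each group, the log2 fold change reached 3.77 (SE 0.161, adjusted p 8.69e-05). The ratio of means was then 19.8, and the lower OIR library was 15.5 times the higher Control. With those 4 libraries, 4 of the 9 members were called higher, Nfe2l2, Hmox1, Txnrd1 and Prdx1, where 17.3% of all genes were called higher.

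The 20 lens genes summed to 79683 RPKM in Control 3, and to 235.7 and 742.0 RPKM in the other Controls. OIR 2, the other library with lens RNA, had a lens sum of 7031 RPKM and the lowest Hmox1 of the 3 OIR libraries. Within OIR, Hmox1 was lowest in OIR 2, then OIR 1, then OIR 3, and the microglia and macrophage sums of 122.5, 165.3 and 168.1 RPKM stood in that order. So did the red cell markers, with sums of 84.3, 139.4 and 158.1 RPKM, and the astrocyte markers, with sums of 49.1, 81.8 and 100.4 RPKM. Nfe2l2, Txnrd1 and Prdx1 had this order too, and so did Nqo1, with OIR 1 and OIR 2 nearly equal. The summed RPKM of the glutathione, haem and iron, and detoxification lists described below also had it. The sums of the other pathway lists did not. How many of all genes had this order was not counted, so it does not single out any cell type. The endothelial and pericyte sums were also lowest in OIR 2, but highest in OIR 1. All 4 tested red cell markers were higher in OIR, with sums of 47.3 to 55.8 RPKM in Control, and none of the 6 was at 0 in all libraries. In Control 3 the microglia and macrophage sum was 49.6 RPKM and the red cell sum 47.3 RPKM, the latter the lowest of the 6 libraries. The part of lens RNA, macrophages, red cells and astrocytes in the Hmox1 values was not tested.

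**Figure D2:**
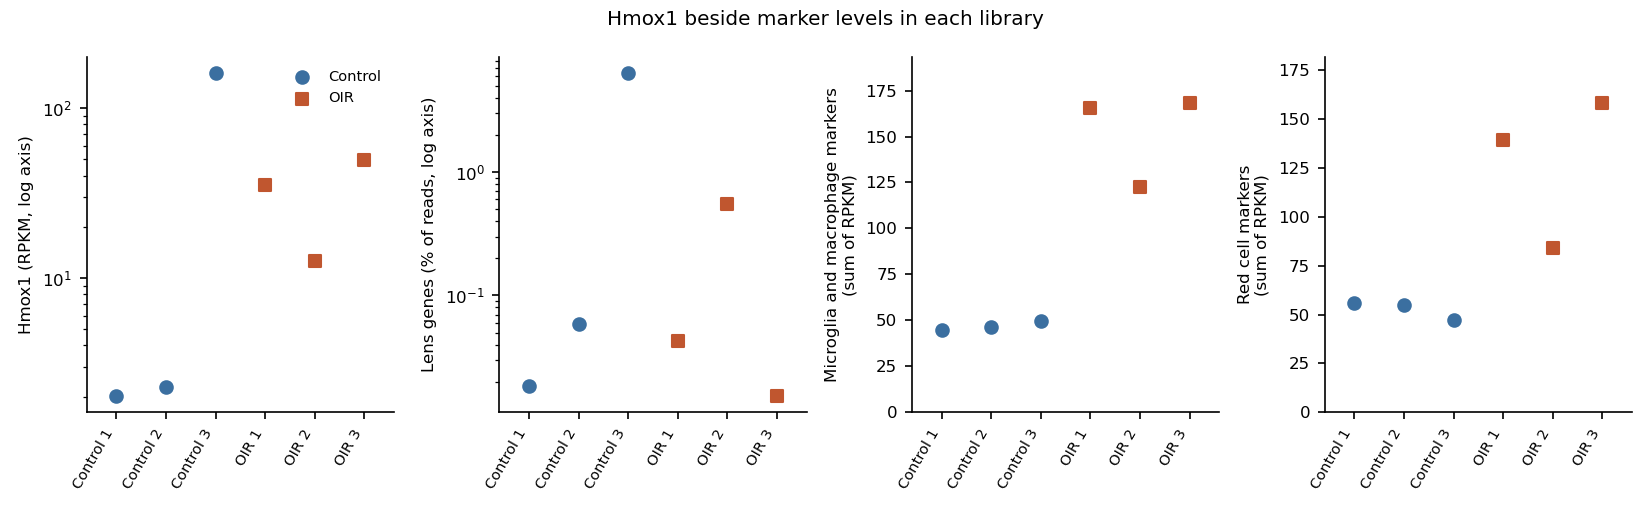
Hmox1 in RPKM (log axis), the percent of reads from 20 lens genes (log axis), and the summed RPKM of 12 microglia and macrophage markers and of 6 red cell markers, in the 3 Control (blue circles) and 3 OIR (orange squares) libraries. Control 3 is highest in Hmox1 and in lens reads, at 160.1 RPKM and 6.32%, while its macrophage and red cell sums, 49.6 and 47.3 RPKM, are at the Control level.

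Control 3 also held the highest value of the 6 libraries for Nqo1, Gclc, Slc7a11 and Prdx1, so that 5 of the 10 members peaked there, a count made after the values were seen. Among all tested genes 8.40% peaked in Control 3. The excess of Control 3 over the higher of the other Controls was 1.79-fold for Slc7a11, 1.35-fold for Nqo1, 1.23-fold for Gclc and 1.16-fold for Prdx1, against 70.4-fold for Hmox1. The lowest value of the 6 libraries was also in Control 3 for 3 members, Nfe2l2, Keap1 and Srxn1, and for 37.2% of all tested genes.

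Nqo1, the gene of a quinone reductase that is a classical NRF2 target, was at 1.55, 1.41 and 2.09 RPKM in Control 1 to 3 and 1.31, 1.31 and 1.61 RPKM in OIR 1 to 3. The groups overlapped and the difference did not pass, at a log2 fold change of -0.15 with an interval from -0.39 to 0.10 (adjusted p 0.378). Between 105 and 163 reads per library lay behind these low values.

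Glutathione is the main small thiol of the cell. The first step in building it from cysteine is carried out by an enzyme of a catalytic and a modifier subunit. Gclc, the catalytic subunit gene, was at 11.8, 11.8 and 14.5 RPKM in Control 1 to 3 and at 11.8, 12.7 and 11.9 RPKM in OIR 1 to 3. Gclm, the modifier subunit gene, was at 9.94, 11.9 and 10.2 RPKM in Control and at 10.6, 9.94 and 10.5 RPKM in OIR. Both genes overlapped between the groups. Their log2 fold changes were -0.06 with an interval from -0.25 to 0.13 (adjusted p 0.676), and -0.04 with an interval from -0.21 to 0.14 (adjusted p 0.788). The intervals of both leave out a change of 1.5-fold (0.58 on the log2 scale) in either direction.

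Slc7a11 encodes the light chain of the transporter that brings in cystine, the source of cysteine for glutathione. It was at 0.343, 0.459 and 0.821 RPKM in Control 1 to 3 and at 0.281, 0.328 and 0.634 RPKM in OIR 1 to 3, with 97 to 273 reads. The groups overlapped, with Control 3 and OIR 3 highest. With no filter on low values its log2 fold change was -0.12 and its adjusted p 0.624. Slc3a2, the gene of the heavy chain of the same transporter and of other amino acid transporters, was named after its values were seen. It rose from 13.3 ± 0.509 to 16.6 ± 1.89 RPKM (adjusted p 0.0352), and this call was lost when any library but OIR 2 was left out, at 0.0506 to 0.153, with no filter, at 0.0748, and with median-of-ratios scaling, at 0.0573.

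Txnrd1, Srxn1 and Prdx1 belong to the thioredoxin system, in which peroxiredoxins remove peroxides and are restored by thioredoxin, its reductase and sulfiredoxin. Txnrd1, the cytosolic thioredoxin reductase gene, was at 11.9, 12.7 and 12.3 RPKM in Control 1 to 3 and at 15.5, 13.1 and 16.6 RPKM in OIR 1 to 3. All OIR values were above all Control values, and OIR 2 was nearest to Control, as for Nfe2l2. The log2 fold change of 0.27, with an interval from 0.08 to 0.46, missed the threshold at an adjusted p of 0.0506. It passed with a filter of 2 RPKM (0.0476), in limma-voom (0.0379), without OIR 2 (0.00550) and without both lens-rich libraries (0.00492), and adjusted p ran up to 0.203 over the other alternatives.

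Srxn1, the gene of sulfiredoxin, which repairs overoxidised peroxiredoxins, was at 22.6, 22.2 and 20.2 RPKM in Control 1 to 3 and at 20.2, 21.2 and 26.0 RPKM in OIR 1 to 3. The groups overlapped, with OIR 3 alone above the Controls. The log2 fold change was 0.04 with an interval from -0.16 to 0.25 (adjusted p 0.778). Prdx1, the gene of peroxiredoxin 1, was at 62.5, 54.3 and 72.6 RPKM in Control 1 to 3 and at 68.4, 62.1 and 68.7 RPKM in OIR 1 to 3. Its groups overlapped too, with both the lowest and the highest value in Control. The log2 fold change was 0.08 with an interval from -0.14 to 0.30 (adjusted p 0.606), and without both lens-rich libraries it was 0.23, at an adjusted p of 0.0341.

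**Figure D3:**
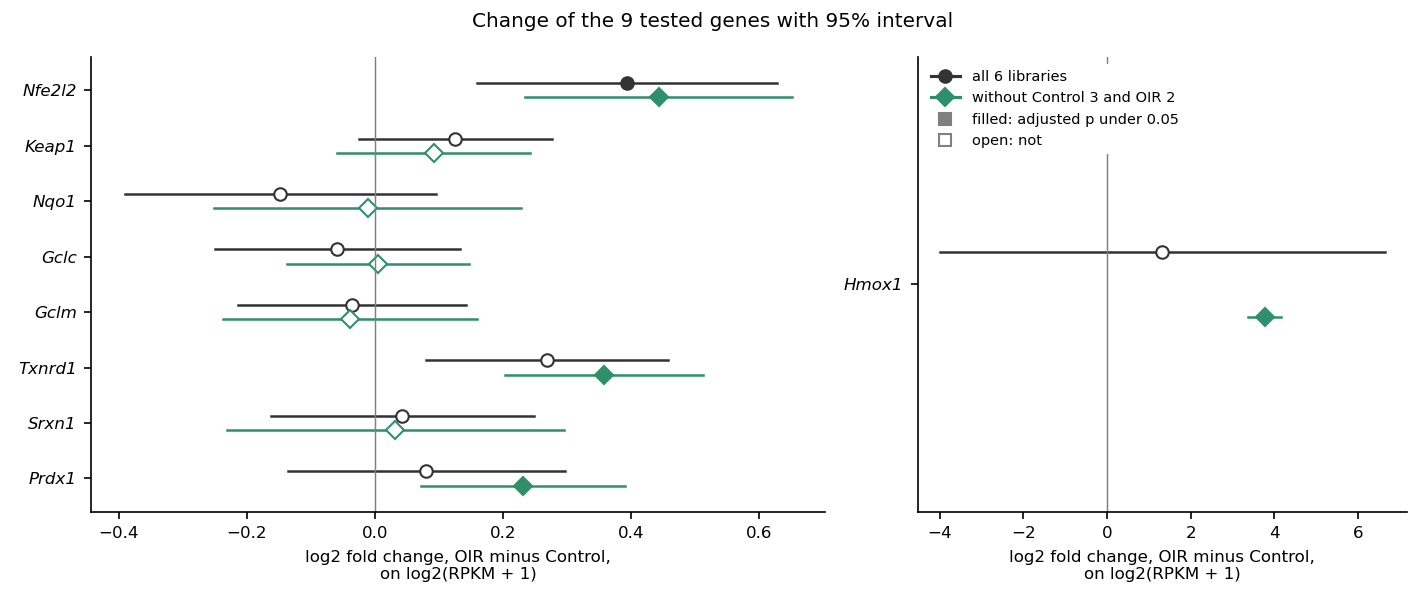
Log2 fold change (OIR minus Control, on log2(RPKM + 1), horizontal axis) of the 9 tested genes with 95% intervals, for all 6 libraries (black circles) and without Control 3 and OIR 2 (green diamonds); filled symbols have an adjusted p below 0.05. With all libraries Nfe2l2 alone is filled, at 0.39; without the lens-rich pair Hmox1 moves to 3.77, and Txnrd1 and Prdx1, at 0.36 and 0.23, are filled too.

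Of 102 genes in 7 lists of NRF2 partners, antioxidant enzymes and detoxification genes, 85 were tested, 7 were higher (8.24%) and 8 lower (9.41%) in OIR, beside the 11.6% and 7.22% of all genes. Their median log2 fold change was -0.05. Without both lens-rich libraries, 18 of the 85 were higher (21.2%) and 14 lower (16.5%), beside 17.3% and 16.0% of all genes. In that fit the list counts higher and lower were 0 and 1 for the regulators, 9 and 5 for glutathione, 2 and 3 for thioredoxin and peroxiredoxin, 3 and 1 for NADPH supply, 3 and 1 for haem and iron, 0 and 1 for superoxide dismutase and catalase, and 1 and 2 for detoxification.

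Of 11 regulators of the pathway, 7 were tested and none was called in limma, at an unadjusted p below 0.05 or in limma-voom. Bach1, the gene of a repressor that competes with NRF2 for its elements, averaged 3.76 ± 0.352 RPKM in the Control libraries and 4.36 ± 0.101 RPKM in the OIR libraries (SD, n = 3 per group, adjusted p 0.157). Rbx1, the gene of a subunit of the ubiquitin ligase that degrades NRF2, was at 61.3 ± 1.99 and 56.9 ± 1.62 RPKM (adjusted p 0.248).

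Of 34 other glutathione genes, 28 were tested, 4 were higher and 2 lower. Chac1, whose enzyme breaks down glutathione, rose from 1.11 ± 0.0157 to 2.0 ± 0.327 RPKM (adjusted p 0.00789). Only 63 to 134 reads per library lay behind it, and its Control values were just above the filter of 1 RPKM. Abcc1, the gene of an exporter of glutathione conjugates, rose from 8.0 ± 0.338 to 11.9 ± 1.95 RPKM (adjusted p 0.00976). The transferase genes Gstm5 and Gstt1 fell, from 71.0 ± 5.93 to 53.1 ± 5.34 RPKM and from 19.4 ± 0.667 to 14.8 ± 1.5 RPKM (adjusted p 0.00992 and 0.0115). The calls of Chac1 and Abcc1 held in each alternative that tested them, while those of Gstm5 and Gstt1 ended without OIR 1, at 0.0539 and 0.0573. Gstm5 has close relatives among the other glutathione transferases, so its value is uncertain where reads were shared. The list count was 7 higher without Control 3. It was 2 higher with no filter and without Control 1, Control 2 or OIR 3, and 0 lower without OIR 1.

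Of 18 other thioredoxin and peroxiredoxin genes, 2 were higher and 1 lower. Txnip, the gene of a protein that binds and inhibits thioredoxin, was at 3.98, 4.95 and 4.90 RPKM in Control 1 to 3 and at 9.09, 8.68 and 8.07 RPKM in OIR 1 to 3. The OIR values lay close together and well above Control, and the log2 fold change of 0.78 (adjusted p 0.000543) passed in all 14 alternatives. Prdx4, the gene of a peroxiredoxin of the endoplasmic reticulum, rose from 2.72 ± 0.348 to 4.65 ± 1.06 RPKM (adjusted p 0.0136). Msra, which encodes a repair enzyme for oxidised methionine, fell from 4.89 ± 0.133 to 3.71 ± 0.517 RPKM (adjusted p 0.0315). The call of Prdx4 ended without Control 1, Control 2 or OIR 1, at 0.0619, 0.0501 and 0.0546, and that of Msra when any library but OIR 2 was left out, at 0.0717 to 0.131, and with no filter, at 0.0633.

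Among 9 genes of NADPH supply, the reducing power behind both systems, Tkt, the transketolase gene, fell from 140.0 ± 6.33 to 110.5 ± 10.9 RPKM (adjusted p 0.0162), and none was higher in limma or limma-voom, with 1 higher at an unadjusted p below 0.05. The call of Tkt ended without OIR 1 or OIR 3, at 0.0864 and 0.0571. Of 10 haem and iron genes, Blvra, the gene of a biliverdin reductase that acts after haem oxygenase, fell from 7.97 ± 1.08 to 6.14 ± 0.641 RPKM (adjusted p 0.0463), a call that ended in 9 of 14 alternatives, at up to 0.161, among them each left-out library other than Control 2 and OIR 2. None of the 10 was higher in limma or limma-voom, and 1 was higher at an unadjusted p below 0.05. That gene, Blvrb, named after its values were seen, encodes the other biliverdin reductase, which is abundant in red cells. It was at 3.66, 3.27 and 4.28 RPKM in Control 1 to 3 and at 7.56, 4.65 and 10.3 RPKM in OIR 1 to 3, and did not pass (adjusted p 0.0960). Its OIR values stood in the same order as the red cell, macrophage and astrocyte sums above, an order not counted over all genes. It passed without OIR 2, at 0.000127, without both lens-rich libraries, at 0.000879, and with the robust option off, at 0.0426.

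Of 5 superoxide dismutase and catalase genes none was called in limma, at an unadjusted p below 0.05 or in limma-voom. Ccs, the gene of the copper chaperone of SOD1, was at 22.2 ± 1.93 and 24.8 ± 0.524 RPKM (adjusted p 0.170), and Sod2, the mitochondrial dismutase gene, at 34.3 ± 0.414 and 31.8 ± 2.22 RPKM (adjusted p 0.278). Without both lens-rich libraries Sod2 was called lower, at an adjusted p of 0.0357.

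Of 15 detoxification genes 8 were tested, 1 was higher and 3 were lower. Ephx1, the microsomal epoxide hydrolase gene, rose from 5.70 ± 0.373 to 8.60 ± 1.74 RPKM (adjusted p 0.0224). Akr1b3, the aldose reductase gene, fell from 25.5 ± 0.633 to 20.6 ± 0.883 RPKM (adjusted p 0.0117), the related Akr1b10 from 3.29 ± 0.336 to 2.47 ± 0.206 RPKM (adjusted p 0.0399), and Cbr1, a carbonyl reductase gene, from 51.7 ± 1.02 to 45.0 ± 1.55 RPKM (adjusted p 0.0433). The call of Akr1b3 ended without OIR 1 or OIR 3, at 0.0527 and 0.0609. That of Ephx1 ended without Control 1, Control 3, OIR 1 or OIR 3, at 0.0705 to 0.0943, and with no filter, at 0.0621. The call of Akr1b10 was lost when any library but OIR 2 was left out, at 0.0577 to 0.149, and that of Cbr1 for any but Control 3, at 0.10 to 0.133. Akr1b10 was also lost without both lens-rich libraries (0.0777), with no filter (0.0652) and in limma-voom (0.123), and Cbr1 with no filter (0.0522) and in limma-voom (0.0590).

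**Figure D4:**
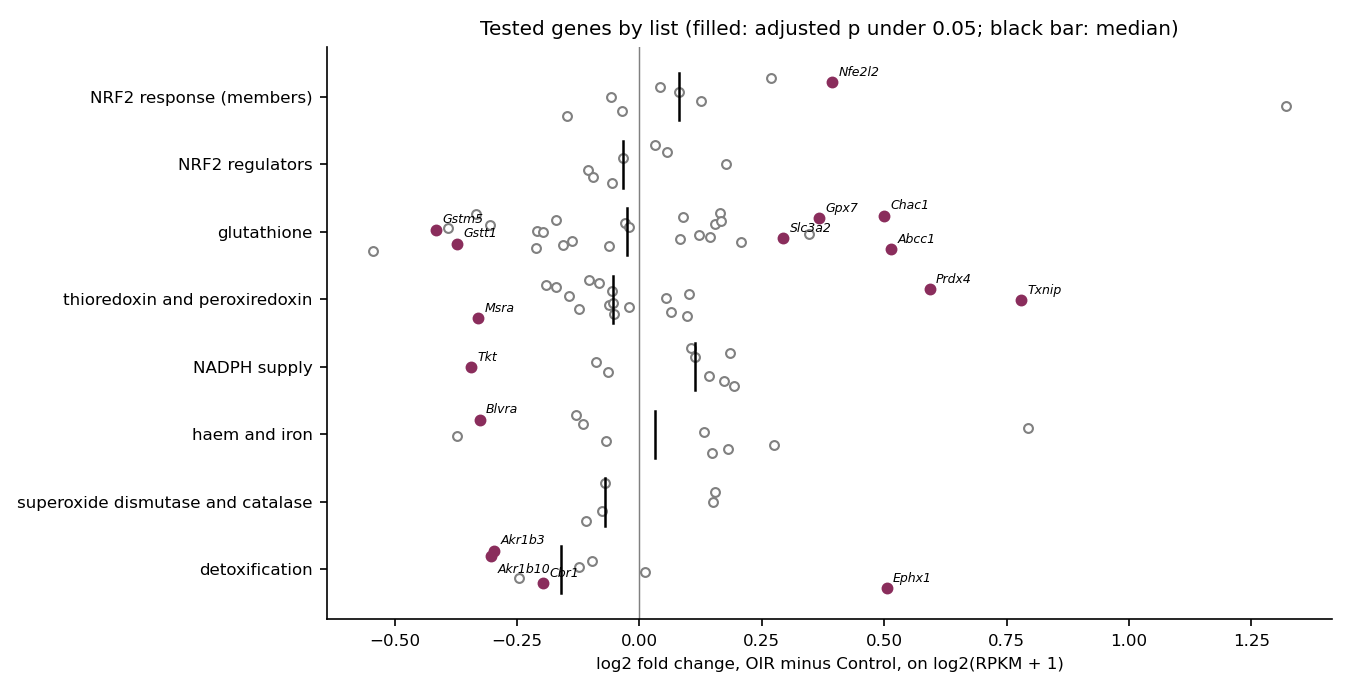
Log2 fold change (OIR minus Control, on log2(RPKM + 1), horizontal axis) of each tested gene in the 10 NRF2 response genes and the 7 wider lists (rows); filled points have an adjusted p below 0.05 and are named, and black bars are medians. Filled points lie on both sides of 0, and the open point at 1.32 in the top row is Hmox1.

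Müller glia, the main glia of the retina and a known site of glutathione metabolism, had 6 of 9 tested markers lower and 1 higher, with sums of 2049 to 2188 RPKM in Control and 1763 to 1931 RPKM in OIR. Of the tested markers of other cells, 5 of 6 amacrine, 2 of 6 ganglion cell, 2 of 5 bipolar and 1 of 4 pigment epithelium markers were lower. All 5 tested pericyte markers, 2 of 4 astrocyte and 1 of 7 rod markers were higher, 1 of 5 cone markers was higher and 1 lower, and 0 of 19 lens markers were called in either direction in limma, at an unadjusted p below 0.05 or in limma-voom. The part of these shifts in the values of the antioxidant genes was not tested.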

How the data were processed

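RNA of 3 Control and 3 OIR retina libraries was compared, with groups and replicate numbers from the sample titles. The authors deposited 1 RPKM value per gene symbol and library. The submitters' processing notes list TopHat2 2.0.12 and Bowtie2 2.0.6. The counting program, genome build and annotation were not given in the sources used here. The library protocol in the labels describes another species, so library type and strand are uncertain, and genes that share reads with near-identical copies, such as Prdx1 and its pseudogenes, are uncertain.

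Depth was recovered from the steps of low values and the lengths of GENCODE M21 transcripts (126 genes). With the smallest whole length per gene, 99.9% of the 17953 genes above 0 came out as whole reads within 0.02 of a read. The 12112 genes with at least 1 RPKM in at least 3 libraries were tested in limma 3.58.1 (R 4.3.3; trend, robust) on log2(RPKM + 1), two-sided, with group as the only term, 4 residual degrees of freedom and Benjamini-Hochberg adjustment over all tested genes at 0.05. The fit was tested on simulated data. The alternatives were other scaling, pseudocount, filters, a replicate block, no robust option, left-out libraries and, added after seeing the data, limma-voom on the recovered reads.

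The members and lists were chosen with earlier results of these data known. The text names all 10 members and, from each pathway list, up to 4 genes past the threshold with the lowest adjusted p, or up to 2 where none passed. Genes named beyond the rule are said to be so.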

Additional observations from a re-analysis of the deposited data

How the results depend on the processing

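Among the members, the fewest reads per library lay behind Slc7a11 (97 to 273) and Nqo1 (105 to 163), apart from Hmox1 in Control 1 and Control 2, and each group had 3 libraries. No member was lower under any of the 14 alternatives. The count of members higher, 1 with all libraries, was 0 with no filter and 0 with the replicate block, 2 with a filter of 2 RPKM, 2 in limma-voom, and 4 without both lens-rich libraries, and it ranged from 0 to 2 when single libraries were left out. Over all genes, the count higher was 1407 with all libraries, 1209 with no filter, 1279 with a filter of 2 RPKM and 1451 in limma-voom. It was 1222 with the replicate block and 2094 without both lens-rich libraries. The filters also change how many genes were tested. The count higher ranged from 513 to 1754 and the count lower from 212 to 1293 when single libraries were left out. The count lower was 1313 with median-of-ratios scaling, 529 with no filter and 1943 without both lens-rich libraries. Some small log2 fold changes crossed 0 when single libraries were left out: Gclc ranged from -0.108 to 0.0348, Gclm from -0.0802 to 0.0392, Srxn1 from -0.0619 to 0.111 and Prdx1 from -0.0219 to 0.18. Gclc was at 0.0046 without both lens-rich libraries. Nfe2l2, Keap1, Txnrd1, Hmox1 and Nqo1 had the same direction in each alternative that tested them, with Hmox1 from 0.34 to 3.77 and Nqo1 from -0.23 to -0.011, while Slc7a11 was tested only with no filter. The cause of these changes was not tested.

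The replicate numbers of the 2 groups share only a number: deviations from the group means correlated at 0.22, -0.44 and -0.41 across genes for numbers 1 to 3. With the replicate block, the adjusted p of Nfe2l2 was 0.0622 that of Txnrd1 0.0607, that of Akr1b10 0.0663, that of Cbr1 0.0754 and that of Blvrb 0.00610, and the counts were 1222 higher and 809 lower over all genes.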

Other observations

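The excess of Hmox1 in Control 3 was ranked against all 12112 tested genes, as the ratio of Control 3 to the higher of the other Controls. Hmox1 stood at rank 26. Of the 25 genes above it, 18 are on the lens list and 4 are Y-linked, and the remaining 3 are Lgsn, Grifin and Crygn, which encode lens proteins or relatives of crystallins. Hmox1 was thus the first gene in this order that is neither Y-linked nor known mainly from the lens.

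Of the next 10 genes in this order that are neither on the lens list nor Y-linked, 3 had each OIR library above Control 1 and Control 2, as Hmox1 had, and 7 did not. How many of all tested genes had this pattern was not counted. Under the stricter rule of each OIR library above all 3 Controls, 23.6% of all tested genes passed, so 3 of 10 does not set these genes apart. The 3 are Nupr1, Tubb6 and Eps8l1, named after their values were seen. The 7 include Cryab, a crystallin gene that the lens list left out, so the 10 are not a set free of lens RNA. Control 3 held 2582 RPKM of Cryab and OIR 2 held 191.5 RPKM, with 27.1 to 47.6 RPKM in the other libraries. Within OIR, each of the 7 was highest in OIR 2, the lens-rich library, and each of the 3 was lowest there. The part of lens RNA in these values was not tested. Nupr1, the gene of a stress-induced nuclear protein, was at 4.38, 8.79 and 220.8 RPKM in Control 1 to 3 and at 30.9, 23.3 and 43.5 RPKM in OIR 1 to 3. Tubb6, a tubulin gene, was at 0.971, 0.649 and 7.89 RPKM in Control and at 8.53, 5.17 and 12.5 RPKM in OIR. Eps8l1 was at 1.17, 0.0859 and 9.18 RPKM in Control and at 5.94, 4.47 and 6.30 RPKM in OIR. Among the 7 others, the small heat shock protein gene Hspb1 was at 4.20, 5.85 and 140.6 RPKM in Control and at 5.06, 10.8 and 5.82 RPKM in OIR, so it was high in Control 3 without a comparable level in OIR 1 or OIR 3.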
